A study of Kluyveromyces marxianus and Kluyveromyces lactis with 30 samples.

Results

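MFA1 and MFA2 of the yeast Kluyveromyces lactis are the 2 genes whose IDs carry the names of the a-factor pheromone precursors, Klac_YGOB_MFA1 and Klac_YGOB_MFA2. They were taken by ID from the 5320 K. lactis genes shared by all its files, and from 10527 genes in the whole series, which also covers Kluyveromyces marxianus. Poly(A)-captured RNA of K. lactis strain yLB72 was sequenced from cultures in heat at 39C, with the DNA-alkylating agent methyl methanesulfonate (MMS), with ethanol, with caffeine, and from control cultures at 28C. Each of the 5 conditions had 3 biological replicates, which gave 15 libraries. The labels give no dose for MMS, ethanol or caffeine, no temperature for those cultures, and no mating type for yLB72. Per the labels' protocols, all cultures came from rich-medium overnight cultures diluted to an optical density of 0.05 and were collected at 0.4 to 0.85.

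In baker's yeast, a-factor is made by a cells and read by alpha cells through the receptor Ste3. Its short precursors are lipid-modified and trimmed, and the mature peptide leaves the cell through the transporter Ste6 rather than the secretory pathway. Baker's yeast MFA1 and MFA2 both encode such precursors and are transcribed in a cells. The genes that mature, export or respond to a-factor could not be followed here. Of 52 pathway names looked for, the K. lactis IDs carry 2, and these are MFA1 and MFA2 themselves.

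MFA1 is a single coding part of 102 bases on the minus strand of chromosome 5, from 1149528 to 1149629, in the coordinates of the authors' ethanol files. MFA2 is a single coding part of 99 bases on the plus strand of chromosome 3, from 1339261 to 1339359. These lengths are 34 and 33 codons with the stop codon. Neither gene overlaps another annotated gene. The libraries without ethanol held 16.9 to 50.9 gene counts in units of 1e6, and the ethanol libraries 39.0 to 94.4. Ethanol libraries were counted with another program on exon features, so ethanol as a condition and the counting cannot be told apart in any ethanol value below. Unless raw counts are named, levels are counts-per-million values (CPM) from TMM-scaled library totals, a scaling that assumes most genes are level between libraries. Whether that held here was not tested. Between 2 conditions, 62.7% to 77.8% of tested genes differed at an edgeR adjusted p under 0.05.

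Caffeine raised MFA1 and did not raise MFA2 past the test. MFA1 had 373, 470 and 898 raw counts in caffeine libraries 1, 2 and 3, against 180, 193 and 78 in control libraries 1, 2 and 3. As levels these were 18.4, 20.7 and 16.6 CPM in caffeine, against 4.87, 5.38 and 4.01 CPM in controls. Every caffeine library lay above every control, with no overlap. The means of 18.6 ± 2.06 CPM in caffeine and 4.76 ± 0.692 CPM in controls (SD, n = 3 each) differed by 1.95 on the log2 scale, with an SE of 0.22 and a 95% interval of 1.48 to 2.42. This was a 3.86-fold rise (edgeR quasi-likelihood test, Benjamini-Hochberg adjusted p = 3.17e-06). The change lay above that of 98.0% of the 5124 genes tested, of which 62.7% were called in either direction in caffeine and 76.3% had no overlap between caffeine and controls.

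MFA2 had 79, 100 and 261 raw counts in caffeine, against 130, 152 and 63 in controls. Its levels were 3.90, 4.41 and 4.83 CPM in caffeine, against 3.52, 4.24 and 3.24 CPM in controls, and the groups overlapped. The log2 difference was 0.26, with a 95% interval of -0.20 to 0.72 (edgeR adjusted p = 0.314). That interval reaches no higher than a 1.64-fold rise, below the 2.80-fold lower bound for MFA1. With raw library totals in place of TMM the MFA2 difference grew to 0.75 and passed the test (adjusted p = 0.00684), while the median of all tested genes moved to 0.49.

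**Figure D1:**
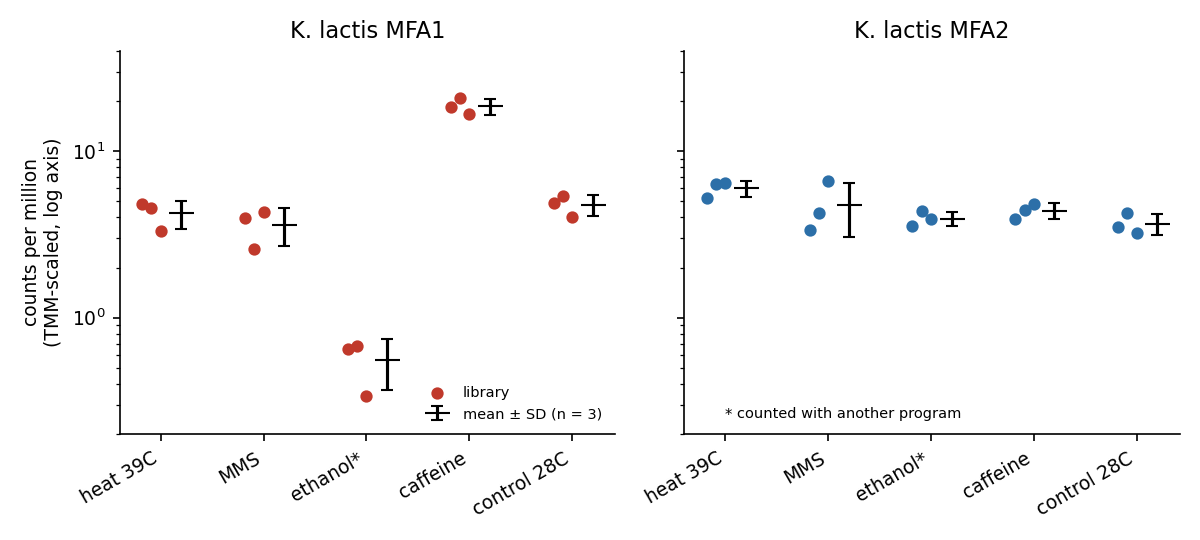
Levels of MFA1 (left panel) and MFA2 (right panel) in CPM on a log axis, one point per library, with the mean and SD of 3 libraries beside them. MFA1 stood at 16.6 to 20.7 CPM in caffeine and at 0.339 to 0.672 CPM in ethanol, against 4.01 to 5.38 CPM in controls, while all MFA2 libraries lay between 3.24 and 6.65 CPM.

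In ethanol, MFA1 was near the bottom of the range and MFA2 was close to its control level. MFA1 had 24, 74 and 16 raw counts in ethanol libraries 1, 2 and 3, although those libraries were on average deeper than the controls. Its levels were 0.652, 0.672 and 0.339 CPM in ethanol, against 4.87, 5.38 and 4.01 CPM in controls. All ethanol libraries lay below all of the other 12 libraries, the lowest of which was MMS replicate 2 at 2.58 CPM. The mean was 0.554 ± 0.186 CPM in ethanol and 4.76 ± 0.692 CPM in controls (SD, n = 3 each), a log2 change of -3.07 ± 0.26 (SE), or 8.38-fold lower (edgeR adjusted p = 3.21e-07). Only 0.878% of tested genes had a lower change, 65.5% were called in either direction in ethanol, and 66.5% had no overlap with controls. That lower tail holds far lower genes, such as KLLA0B07601g at -17.5 and KLLA0A08316g at -16.5, whose heat changes were 0.94 and -0.87. Whether the counting plays a part in these was not tested. The lowest raw count of MFA1, 16, gives 0.351 CPM of the raw library total, with an exact 95% Poisson interval of 0.201 to 0.571 that covers counting error only.

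MFA2 had 131, 479 and 184 raw counts in the same ethanol libraries, which is 3.56, 4.35 and 3.90 CPM, against 3.52, 4.24 and 3.24 CPM in controls. The groups overlapped, and the log2 difference was 0.10 with a 95% interval of -0.35 to 0.55 (edgeR adjusted p = 0.685). With raw library totals the MFA2 difference was 0.61 (adjusted p = 0.0185), beside a median of 0.49 for all tested genes. Without ethanol replicate 2 it was -0.02.

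Heat raised MFA2 modestly and left MFA1 without a call. MFA2 had 100, 127 and 280 raw counts in heat, with levels of 5.23, 6.32 and 6.40 CPM, against 3.52, 4.24 and 3.24 CPM in controls. The groups did not overlap. The mean of 5.99 ± 0.654 CPM in heat stood 1.63-fold above the 3.67 ± 0.515 CPM of controls (SD, n = 3 each; log2 change 0.70 ± 0.21 SE; edgeR adjusted p = 0.00892). In heat 71% of tested genes were called and 81.2% did not overlap between the groups, and 81.4% of tested genes had a lower change than MFA2. A change of at least 1.5-fold was not shown for MFA2 (adjusted p = 0.291 against that minimum).

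MFA1 had 92, 92 and 145 raw counts in heat, at 4.81, 4.58 and 3.31 CPM, against 4.87, 5.38 and 4.01 CPM in controls. The groups overlapped, with a log2 difference of -0.20 and a 95% interval of -0.69 to 0.29 (edgeR adjusted p = 0.438). With raw library totals the sign turned, to 0.13.

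MMS changed neither gene past the test. MFA1 had 90, 81 and 110 raw counts and 3.96, 2.58 and 4.30 CPM in MMS, against 4.87, 5.38 and 4.01 CPM in controls, with a log2 difference of -0.42 and a 95% interval of -0.91 to 0.07 (edgeR adjusted p = 0.114). MFA2 had 76, 134 and 170 raw counts and 3.34, 4.26 and 6.65 CPM in MMS, against 3.52, 4.24 and 3.24 CPM in controls, with a log2 difference of 0.37 and a 95% interval of -0.09 to 0.83 (edgeR adjusted p = 0.138). Both genes overlapped between MMS and controls, while 71.5% of tested genes were called in MMS and 71.6% did not overlap. MFA2 spread more in MMS than elsewhere, with a coefficient of variation of 36.0% against 10.1% to 14.0% in the other conditions. MMS replicate 3 also stood apart over all genes. Its median chi-square per gene, which measures differences against counting error, was 37.6 and 38.4 with replicates 1 and 2, against 3.85 between those. Pairs of ethanol libraries had medians of 35.8 to 133.5. This measure grows with depth, and the ethanol libraries were deeper than those of MMS, so these medians do not rank their spread. The log2 difference of MFA2 became 0.59 without MMS replicate 1 (adjusted p = 0.0209) and 0.05 without MMS replicate 3, so single libraries decide it. With raw totals it was 1.18 (adjusted p = 1.52e-04), beside a median of 0.83 for all tested genes, and MFA1 turned to 0.41.

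The ratio of the 2 genes within a library does not depend on how libraries are scaled. It does rest on reads being assigned to the right gene of the 2. How alike their sequences are, and how reads that fit both were counted, was not tested. The observed ratio lay outside the control range in every stressed library, though not always beyond counting error. MFA1 made up 82.5%, 82.5% and 77.5% of the summed MFA1 and MFA2 counts in caffeine libraries 1, 2 and 3. In controls it made up 58.1%, 55.9% and 55.3%. The exact 95% intervals of the caffeine libraries, which cover counting error only, began at 75.0% and those of the controls ended at 63.7%. In ethanol the share was 15.5%, 13.4% and 8.0%, with intervals from 4.64% to 22.2%.

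Heat and MMS also had lower shares than the controls, with more spread. The share was 47.9%, 42.0% and 34.1% in heat libraries 1, 2 and 3, and 54.2%, 37.7% and 39.3% in MMS libraries 1, 2 and 3. The control range was 55.3% to 58.1%, and MMS replicate 1 came nearest to it. The exact 95% interval of MMS replicate 1, 46.3% to 62.0%, spans that whole range. The interval of heat replicate 1, 40.7% to 55.2%, overlaps those of all 3 controls, and the interval of heat replicate 2, 35.4% to 48.9%, overlaps that of control replicate 3, which begins at 46.7%. The intervals of heat replicate 3 and of MMS replicates 2 and 3 end at 38.8%, 44.5% and 45.3%, below those of the controls. Mean shares were 41.4% ± 6.92 under heat, 43.7% ± 9.12 under MMS, 12.3% ± 3.86 under ethanol, 80.8% ± 2.89 under caffeine and 56.4% ± 1.44 in controls (SD, n = 3 each). Each stress against control gave a 2-sided exact permutation p of 0.1, the smallest that 3 against 3 libraries allow, and 0.1 after Benjamini-Hochberg adjustment over the 4 comparisons. Over all 5 conditions at once, 28 of the 1401400 ways to divide the 15 libraries into groups of 3 separated the shares as far as the real groups did (exact permutation p = 2.00e-05). Without ethanol it was 28 of 15400 ways (exact permutation p = 0.00182). This pair of tests over all conditions was added after the shares had been seen, so its p-values only describe these libraries. Such tests do not say which conditions differ, so neither p-value is a result for heat or MMS by itself. No other gene pair was tested in this way, and edgeR called 62.7% to 77.8% of single genes between 2 conditions.

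**Figure D2:**
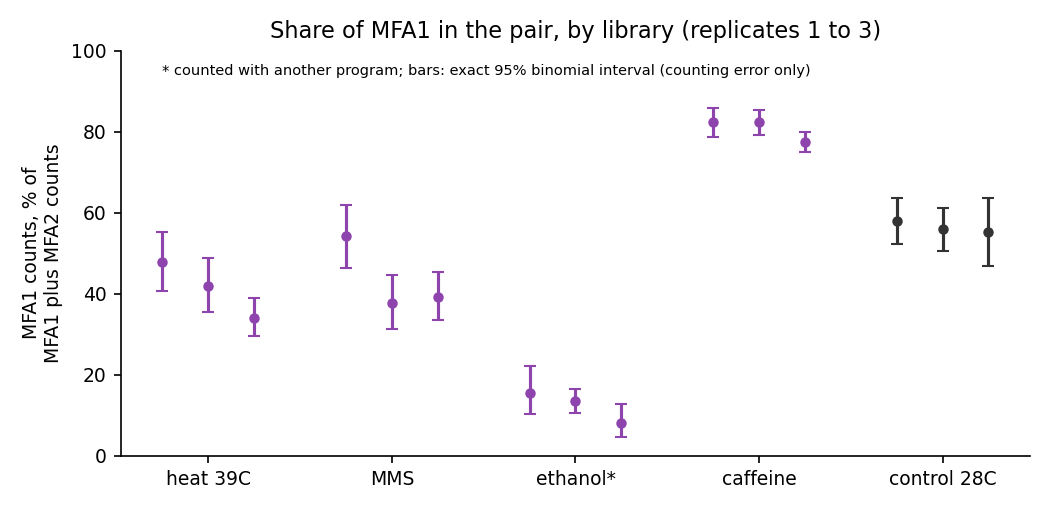
MFA1 counts as a percentage of MFA1 plus MFA2 counts in each of the 15 libraries, replicates 1 to 3 from left to right within a condition, with exact 95% binomial intervals. The caffeine libraries stand at 77.5% to 82.5% and the ethanol libraries at 8.0% to 15.5%, against 55.3% to 58.1% in controls.

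Per base of coding part, MFA1 was the more abundant gene in caffeine and controls, and MFA2 in ethanol. MFA2 was also the more abundant in each heat library, though not beyond counting error in heat replicate 1. The MMS libraries went both ways. The ratio of MFA1 to MFA2 per length was 0.700 ± 0.195 under heat, 0.788 ± 0.314 under MMS, 0.137 ± 0.0480 under ethanol, 4.16 ± 0.712 under caffeine and 1.26 ± 0.0748 in controls (SD, n = 3 each). With CPM divided by the length of the coding part in kilobases, MFA1 reached 182 ± 20.2 in caffeine and 5.44 ± 1.83 in ethanol, against 46.6 ± 6.79 in controls. In caffeine 84.3% of the 5320 genes had a lower mean on this scale than MFA1, and in ethanol 8.10% did. In controls 48.6% had a lower mean than MFA1 and 41.1% a lower mean than MFA2, so both stood near the median of 48.5 on this scale. Whether counts scale with length in genes this short was not tested, which limits these ranks. MFA2 was highest in heat at 60.4 ± 6.60, against 37.0 ± 5.20 in controls.

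The summed counts of the pair were highest in caffeine. Together the genes took 23.4, 25.8 and 22.8 CPM of raw library totals in caffeine, against 6.22, 7.07 and 5.51 in controls, without overlap. In ethanol they took 3.98, 5.86 and 4.39, against the same controls, and the groups overlapped. The sums were 9.58, 10.1 and 8.83 in heat and 9.82, 9.52 and 13.5 in MMS, all above the controls on this scale. The exact permutation p was 0.1 for heat, MMS and caffeine and 0.2 for ethanol (adjusted over the 4 comparisons, 0.133 and 0.2). With TMM-scaled totals the sum averaged 8.36 ± 2.26 CPM in MMS and 8.42 ± 1.18 CPM in controls (SD, n = 3 each), so the higher sum in MMS rests on the scaling. In heat the difference from controls was 3.23 CPM with raw totals and 1.80 CPM with TMM-scaled totals, where the lowest heat library stood at 9.71 CPM and the highest control at 9.62 CPM. Ethanol on that scale took 4.21, 5.02 and 4.24 CPM, below all controls, whose lowest was 7.26 CPM.

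All 10 pairs of conditions were tested for each gene to place the levels in order. From low to high, MFA1 ran from ethanol over MMS, heat and controls to caffeine. MMS and heat did not differ beyond their spread (edgeR adjusted p = 0.42), nor did heat and controls (0.438). Ethanol lay below MMS (adjusted p = 1.19e-06) and caffeine above controls. The outer steps are wide, since MFA1 was 32.4-fold lower in ethanol than in caffeine (adjusted p = 1.20e-09). In all, 7 of 10 pairs passed for MFA1, those that involve ethanol or caffeine. The background is high in every pair: edgeR called 71.8% of tested genes in heat against MMS, 77.8% in heat against ethanol and 73.1% in heat against caffeine. It called 65% in MMS against ethanol, 65.4% in MMS against caffeine and 71.4% in ethanol against caffeine.

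From low to high, MFA2 ran from controls over ethanol, caffeine and MMS to heat. No neighbouring pair in this order passed (edgeR adjusted p = 0.685, 0.508, 0.668 and 0.163, from low to high). In all, 2 of 10 pairs passed for MFA2, heat against controls and heat against ethanol (adjusted p = 0.0152). In bulk cultures such as these, a change in the share of cells that transcribe a gene and a change in its RNA per cell cannot be told apart.

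**Figure D3:**
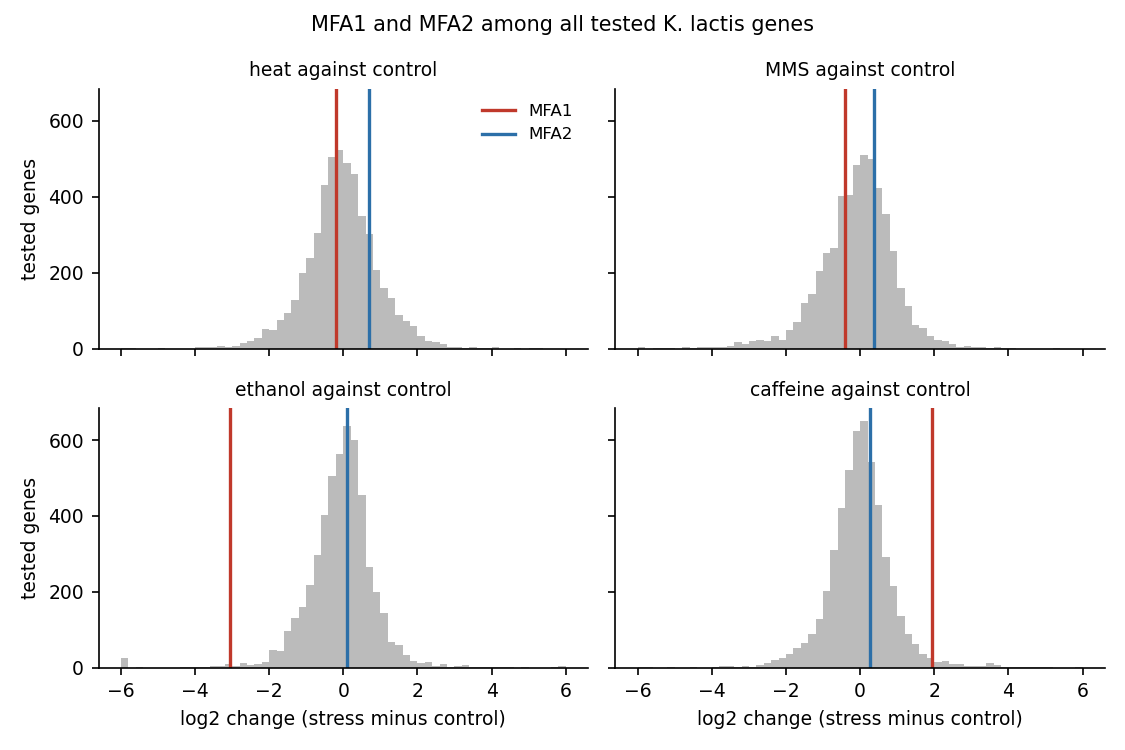
Histograms of the log2 change, stress minus control, of the 5124 tested K. lactis genes in 4 panels, 1 per stress, with vertical lines at MFA1 and MFA2 and changes beyond 6 drawn at the edge. MFA1 lies in the lower tail in ethanol at -3.07 and in the upper tail in caffeine at 1.95, and MFA2 lies at 0.10 to 0.70 in all panels.

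The nearest genes on each side did not share the pattern of MFA1. KLLA0E12981g begins 537 bases from MFA1 at higher coordinates and KLLA0E12959g ends 1489 bases from it at lower coordinates, both on the strand of MFA1, and the files pair neither with a name. In caffeine their log2 changes were 0.52 (edgeR adjusted p = 0.00224) and -0.30 (0.134). In ethanol they were 0.47 (0.00391) and -0.48 (0.0207), against the -3.07 of MFA1.

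MFA2 has closer neighbours. KLLA0C15433g lies 79 bases beyond the 3′ end of MFA2 on the opposite strand, so the 2 genes point toward each other, and KLLA0C15411g ends 263 bases before MFA2 on the same strand. KLLA0C15433g was higher in all 4 stresses, with log2 changes of 1.24 (heat), 2.23 (MMS), 1.48 under ethanol and 1.57 under caffeine (edgeR adjusted p from 6.49e-07 to 1.27e-04). The changes of KLLA0C15411g were 0.82, 0.67, 0.53 and 0.35 in the same stresses (edgeR adjusted p from 1.34e-04 to 0.0442), while MFA2 had 0.70, 0.37, 0.10 and 0.26. The sources used here do not say whether the HTSeq counting used strand. In heat KLLA0C15411g stood at 54.8 CPM and KLLA0C15433g at 29.1 CPM, against 5.99 CPM for MFA2. How far reads from either neighbour enter the MFA2 counts was not tested.

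**Figure D4:**
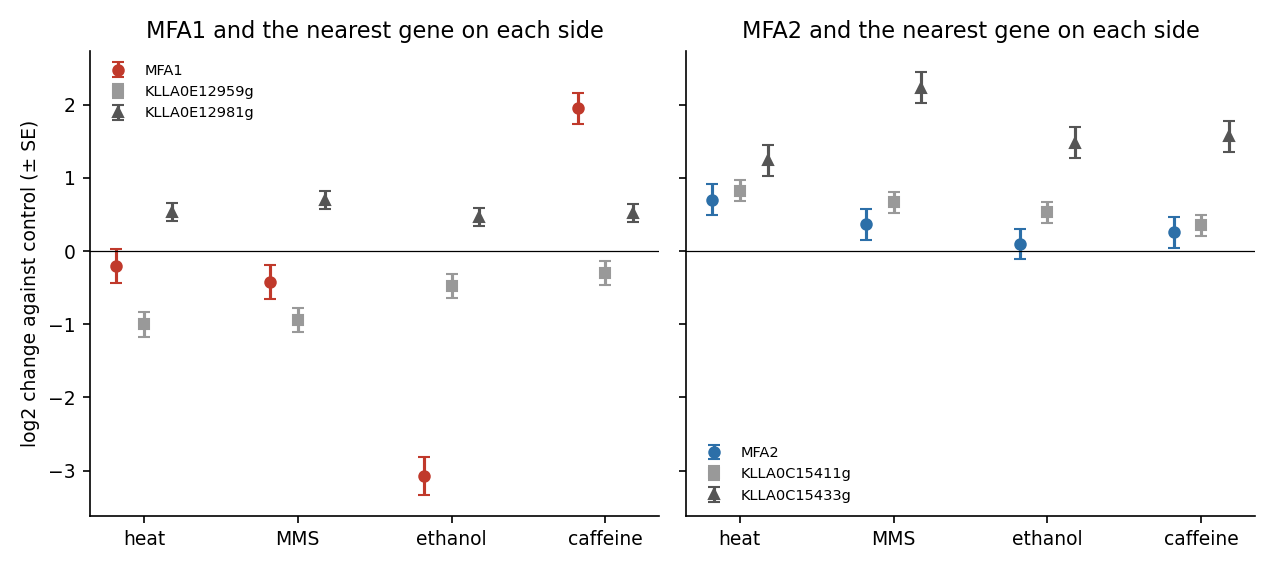
Log2 change against control with its SE in each stress for MFA1 (left) and MFA2 (right) and for the nearest annotated gene on each side. MFA1 departs from both of its neighbours in ethanol and caffeine, and KLLA0C15433g lies above MFA2 in all 4 stresses.

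MFA2 was about as far from MFA1 as the median gene was, while MFA1 was farther from MFA2 than most genes were. Over the 12 libraries without ethanol, the centred log2 CPM of the pair differed by a root mean square of 1.07, against a median of 1.06 between MFA1 and 4680 genes with at least 10 CPM and no overlap. Between MFA2 and the same candidates the median was 0.55, and 92.6% of them lay closer to MFA2 than MFA1 did. Over all 15 libraries 98.7% did, and 34.6% of candidates lay closer to MFA1 than MFA2 did. The genes nearest to MFA1 on this measure were KLLA0B07469g (chromosome 2, 645646 to 648282) at 0.26 and KLLA0E00661g (chromosome 5, 55858 to 56325) at 0.29. Both rose with caffeine, by 1.96 and 1.92 on the log2 scale. KLLA0E00661g met the minimum of 10 CPM only through caffeine, at 31.9 CPM there against 7.08 (heat), 4.77 (MMS) and 8.4 CPM (controls). In ethanol, which the measure left out, KLLA0B07469g was higher by 1.41, while KLLA0E00661g was lower by 0.91 (log2 change -0.91). Over all 15 libraries neither remained among the nearest 2 to MFA1, which became KLLA0B06347g and KLLA0E18547g at 0.55 each. The genes nearest to MFA2 were KLLA0E01431g (chromosome 5, 141256 to 141909) at 0.17 and KLLA0D05753g (chromosome 4, 494751 to 496592) at 0.18, both higher in heat, by 0.81 and 0.65. These stayed the nearest 2 to MFA2 over all 15 libraries. The genes most like MFA1 or MFA2 are named for likeness alone. Their rises in caffeine or heat come with that choice and are no separate result. The files pair none of them with a function.

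The other 8 K. lactis protein-coding IDs of at most 150 bases, which share with MFA1 and MFA2 a small target for reads, did not move together. In caffeine 2 rose and 1 fell, beside the 62.7% of all tested genes called there, with a median log2 change of -0.13. In ethanol 1 was higher and 5 were lower, 1 of these in a gene that overlaps another, beside 65.5% of all tested genes. The median in ethanol was -1.28 against 0.00 over all tested genes, and the single rise was that of Klac_YGOB_Anc_7.453, by 4.26 on the log2 scale. Whether gene length or the counting plays a part in these values was not tested. In heat 4 rose and 1 fell (median 0.20), beside 71% of all tested genes, and in MMS 3 rose and 4 fell (median -0.55), beside 71.5%. The overlapping gene, Klac_YGOB_Anc_8.775, is also among those that rose in heat and caffeine. The single fall in heat is that of KLLA0D08833g, near the floor at 0.18 CPM against 0.74 CPM in controls. It is also among those lower in MMS and ethanol. PMP1 has 120 bases, is known in baker's yeast for its part in regulating the proton-pumping ATPase of the cell membrane, and was also lower in ethanol, at 309 ± 89.8 CPM against 757 ± 39.2 CPM in controls (SD, n = 3 each; log2 change -1.29; edgeR adjusted p = 2.77e-04). PMP1 was lower in MMS too, where MFA1 had no call, at 337 ± 100 CPM (log2 change -1.17, edgeR adjusted p = 4.87e-04). YER053C-A, of 114 bases, rose in caffeine to 142 ± 16.2 CPM against 42.0 ± 15.1 CPM in controls (log2 change 1.77; edgeR adjusted p = 4.34e-05), and in heat and MMS as well, where MFA1 did not.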

How the data were processed

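The authors deposited raw counts per feature for each library, with no normalization. TopHat and HTSeq appear in the submitters' processing notes without versions. The 12 K. lactis files without ethanol have the HTSeq layout, and featureCounts 1.6.3 made the 3 ethanol files, per the file headers. For the genome build: not given in the sources used here. Multi-part genes were added up, which left 5320 genes. Reads on no feature (4.68% to 8.04% without ethanol) and ambiguous reads stayed out of totals.

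The quasi-likelihood test of edgeR 4.0.16 in R 4.3.3 was run on all 15 K. lactis libraries together, with condition as the single factor, after filterByExpr and TMM scaling (factors 0.735 to 1.39). Of 5124 genes tested, calls had a Benjamini-Hochberg adjusted p under 0.05, and tests were 2-sided. The SE comes from the F statistic. The biological coefficient of variation was 0.168 for MFA1 and 0.160 for MFA2. Shares and sums of the pair were compared by exact permutation tests (scipy 1.17.1), with exact binomial and Poisson intervals at 95%. The edgeR step was tested on simulated data. Alternatives were RLE scaling, raw totals, DESeq2 1.42.0, no filter, smaller fits, a 1.5-fold minimum, a replicate block and leaving out each library.

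Named genes were MFA1 and MFA2, their neighbours, the 2 genes most like each, and named pathway genes that changed at least 2-fold. PMP1 and YER053C-A were named after their values were seen. So were the other short genes given by ID and the genes given from the lower tail in ethanol. The members and lists were chosen with earlier results of these data known.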

Additional observations from a re-analysis of the deposited data

How the results depend on the processing

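Of 110 alternative values of the 8 log2 changes, 102 kept the direction and the side of the threshold. The rise of MFA1 in caffeine and its lower level in ethanol kept both in every alternative, at 1.85 to 2.44 and at -3.34 to -2.55. With raw library totals, MFA1 in heat turned to 0.13 and in MMS to 0.41, neither past the test, and MFA2 passed in MMS (1.18), ethanol (0.61) and caffeine (0.75). That setting moves the median of all tested genes to 0.27 (heat), 0.83 (MMS) and 0.49 (ethanol and caffeine alike), so these shifts follow from the scaling itself. Against a minimum change of 1.5-fold, the heat rise of MFA2 (0.70) did not pass. Leaving out 1 library at a time gave MFA2 0.054 to 0.59 in MMS, -0.017 to 0.22 in ethanol and 0.17 to 0.38 in caffeine. It gave MFA1 -0.31 to -0.030 in heat, smallest without heat replicate 3, and -0.57 to -0.19 in MMS, smallest without MMS replicate 2, none past the test. With TMM-scaled totals the sum of the pair turned to -0.061 CPM in MMS and was 1.80 CPM above controls in heat. The MFA1 share kept its direction when single libraries were left out or counts were pooled. With no overlap between stress and control shares, these alternatives could not turn it. The labels state no pairing between equal replicate numbers. Correlations of their deviations, from -0.229 to 0.229, do not settle whether libraries of equal number were handled together. With the replicate block the log2 changes of MFA1 were 1.97 in caffeine and -3.07 in ethanol, and no call changed. Counts of 16, 24 and 74 for MFA1 in the ethanol libraries limit the precision of its level there.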
